A study of Mus musculus with 8 samples.

Results

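The potassium channel genes of the mouse were taken as all protein-coding genes whose symbol begins with Kcn. The RefSeq gene table lists 94 of them in 21 subfamilies, and all 94 had a row among the 41591 gene identifiers counted in each library. The symbol sorts them into 14 tandem-pore leak channel genes (Kcnk), 15 inward rectifier genes (Kcnj) and 30 voltage-gated pore genes (Kcna, Kcnb, Kcnc, Kcnd, Kcnh, Kcnq). A further 10 are silent voltage-gated genes (Kcnf, Kcng, Kcns, Kcnv). Another 8 form the class of calcium- or sodium-activated pores (Kcnma, Kcnn, Kcnt, Kcnu), in which Kcnu1 is placed by family and not by its gating. The rest are 16 auxiliary subunit genes (Kcnab, Kcne, Kcnip, Kcnmb) and Kcnrg. After the filter on low counts, 67 of the 94 were tested for a difference between genotypes and 27 were not.

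RNA came from whole ovaries of C57BL/6 females of about 3 weeks. Follicle growth was induced in all mice with 4 IU of equine chorionic gonadotropin (eCG). An injection of 5 IU of human chorionic gonadotropin (hCG), which acts as the ovulatory surge of luteinising hormone, followed after 48 h. Ovaries were removed 12 h after hCG, close to ovulation. The 4 DKO mice were conditional double knockouts of Insr and Igf1r, the receptors for insulin and insulin-like growth factor 1, and the 4 Control mice were littermates labelled wild-type. The Control labels add Pgr-Cre, a recombinase driven by the progesterone receptor gene, and the DKO labels name only the lost receptors and no Cre. In the ovary the progesterone receptor is made mainly by granulosa cells after the ovulatory signal. Which cells of the DKO ovaries lost the receptors was not analysed here. Each library held 33145056 to 39257648 counts. Insr averaged 126 ± 16.8 CPM (counts scaled to library size with TMM factors) in DKO and 155 ± 10.3 CPM in Control ovaries (SD, n = 4 each), a log2 fold change of -0.30 that was not called by edgeR's quasi-likelihood test (adjusted p = 0.226). Igf1r averaged 214 ± 22.4 CPM in DKO and 236 ± 28.6 CPM in Control ovaries, with a log2 fold change of -0.14, and Pgr averaged 1.61 ± 0.537 CPM in DKO and 4.86 ± 1.75 CPM in Control ovaries, with a log2 fold change of -1.59 (edgeR, adjusted p = 0.639 and 0.0665). Ovarian markers were present in every library: the 5 granulosa markers summed to 1779 to 2635 CPM in DKO and 1709 to 2218 CPM in Control ovaries, and the 5 oocyte markers to 99.1 to 338 CPM in DKO and 87.7 to 347 CPM in Control ovaries, with 0 called in either list. Counts over whole genes in a whole ovary do not check a conditional deletion.

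Potassium channels let potassium leave the cell and so hold the membrane at a negative voltage. Leak channels and inward rectifiers set the resting voltage, voltage-gated channels repolarise the membrane after a depolarisation, and calcium-activated channels couple it to intracellular calcium. Silent subunits form no channel alone and change the behaviour of the voltage-gated pores they join, and auxiliary subunits alter gating or trafficking. In the ovary, potassium channels of granulosa and luteal cells take part in setting the membrane voltage during steroid secretion, and those of vascular smooth muscle take part in setting vessel tone.

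For 69 of the 94 genes RefSeq gives the sequence before the annotated start. Those of Kcnj8 and Kcne4 are shown because the levels of both followed the library more than the genotype (described further on). Both are on GRCm38.p6, 5′ to 3′ on the strand of the gene, trimmed to leave out annotated exons, and capitals mark CG dinucleotides. The Kcnj8 stretch is chr6:142571648-142571864 on the minus strand and the Kcne4 stretch is chr1:78816661-78816757 on the plus strand.
Kcnj8: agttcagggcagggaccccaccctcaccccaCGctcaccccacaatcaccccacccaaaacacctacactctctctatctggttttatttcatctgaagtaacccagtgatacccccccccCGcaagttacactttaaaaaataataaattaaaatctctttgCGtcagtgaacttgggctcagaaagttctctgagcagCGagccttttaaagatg
Kcne4: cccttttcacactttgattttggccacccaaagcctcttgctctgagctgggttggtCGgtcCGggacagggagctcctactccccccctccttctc
The Kcnj8 stretch holds 4 CG dinucleotides in 217 bases and the Kcne4 stretch holds 2 in 97 bases. In the 250 bases before the start, observed over expected CG was 0.432 for Kcnj8 and 0.406 for Kcne4, beside a median of 0.441 over the 69 Kcn promoters and 0.373 over all 32851 promoters of the table. None of the motifs searched in these 250 bases on both strands was in either promoter. For both genes these 250 bases reach into annotated exons, which were trimmed off the sequences shown. The motifs were the serum response factor site known as the CArG box, the TATA box TATAAA, the forkhead motif GTAAACA, the nuclear receptor motif AAGGTCA and the cyclic AMP response element TGACGTCA. Of all promoters, 1.47% held a CArG box, 12.4% TATAAA, 3.17% GTAAACA, 4.08% AAGGTCA and 1.55% TGACGTCA. Of the 69 Kcn promoters, 2 held TATAAA (2.9%), 3 held AAGGTCA (4.35%) and 0 held any of the other 3 motifs. A single promoter was taken per Kcn gene, while the 32851 were not reduced in that way or limited to protein-coding genes.

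Levels of different genes were compared per kilobase of exon (RPKM, from the TMM-scaled CPM). The median over the 67 tested Kcn genes was 0.489 RPKM, against 5.54 RPKM over all 16870 genes tested. Only 24 reached a mean of 1 RPKM over the 8 libraries, 7 reached 5 RPKM and 35 stayed under 0.5 RPKM. The 10 with the highest level were Kcnk3, Kcnab3, Kcnj8, Kcnh2, Kcnab1, Kcnk1, Kcne4, Kcnk5, Kcnt1 and Kcnt2, so leak channels, a vascular inward rectifier, an Erg-type voltage-gated pore, sodium-activated pores and auxiliary subunits were among the leading transcripts. Kcnk3 ranked 1 of the tested Kcn genes in DKO and 2 in Control ovaries, where Kcnj8 had the higher mean.

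**Figure D1:**
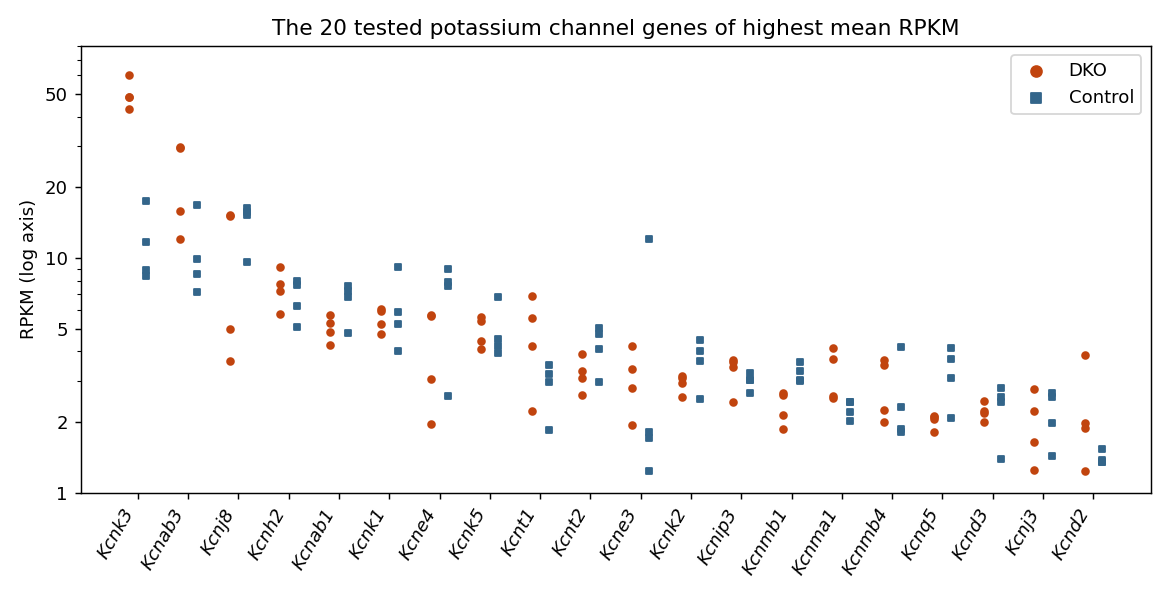
Level of each of the 20 tested Kcn genes of highest mean RPKM, on a log axis, ordered by mean; each point is 1 library, 4 DKO and 4 Control. The Kcnk3 points of the DKO libraries stand at 43.1 to 60.4 RPKM, above every other point, and most other genes show interleaved groups.

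The main comparison asked which potassium channel transcripts differed between the double knockout and littermate ovaries. Of the 67 tested Kcn genes, Kcnk3 rose and Kcnv2 fell in DKO ovaries at an adjusted p under 0.05, which is 2.99%. Over all 16870 genes tested, 212 passed, or 1.26%, of which 0.759% were higher and 0.498% lower in DKO ovaries. The median log2 fold change of the Kcn genes was -0.02, with 32 above 0 and 35 below, beside a median of -0.02 over all genes. At an unadjusted p under 0.05 stood 13 Kcn genes (19.4%), against 15.4% of all genes. DESeq2 called 4 (Kcnk3, Kcnab3, Kcnq5 and Kcnv2) where it called 6.56% of all genes, and limma-voom with quality weights called those 4 together with Kcnab1 and Kcnt2, where it called 9.79% of all genes. Because the tissue is bulk ovary, a lower level from fewer cells of a type and one from less RNA per cell cannot be told apart.

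**Figure D2:**
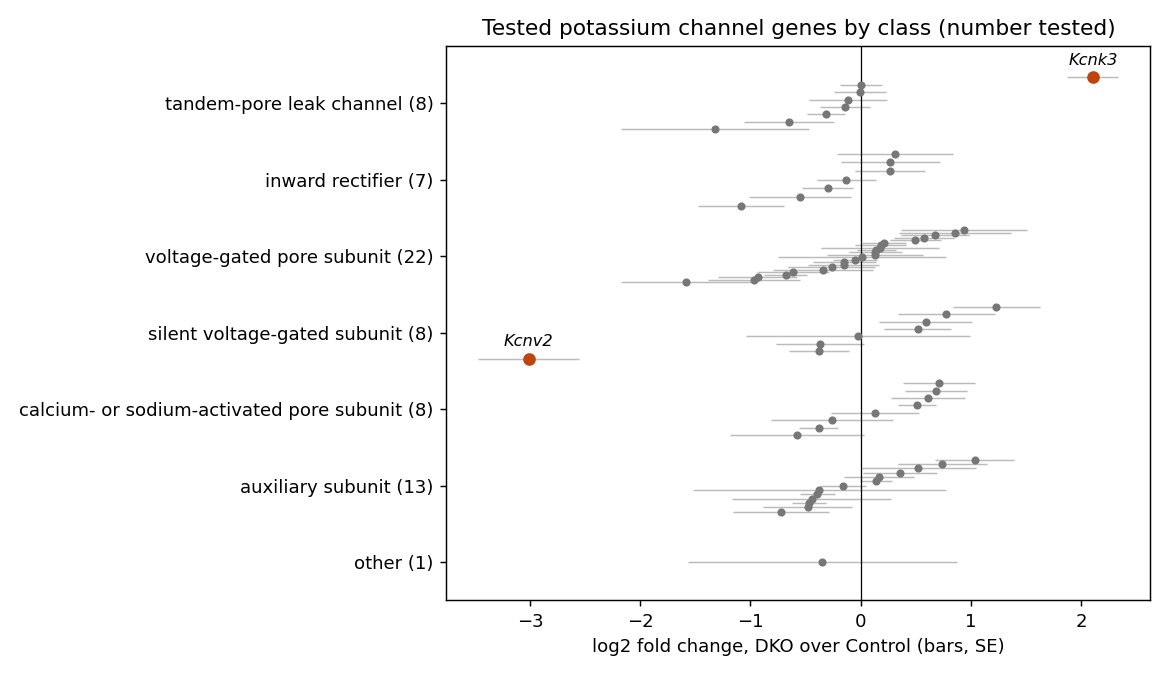
Log2 fold change, DKO over Control, of the 67 tested Kcn genes by class, each point a gene with its SE as a bar. Kcnk3 at 2.11 and Kcnv2 at -3.01, in colour, are the genes with an adjusted p under 0.05.

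Kcnk3 encodes TASK-1, a tandem-pore leak channel that is closed by extracellular acid and by receptors coupled to Gq. The gene (identifier 16527) lies at chr5:30588170-30625270 on the plus strand of GRCm38.p5, and its exons sum to 3810 bases. Its level was 185, 164, 230.1 and 184 CPM in the DKO ovaries, against 44.4, 31.9, 66.7 and 33.9 CPM in the Control ovaries. The lowest DKO ovary lay above the highest Control ovary, so the groups did not overlap. The means were 191 ± 27.8 CPM in DKO and 44.3 ± 16.0 CPM in Control ovaries (SD, n = 4 each), a log2 fold change of 2.11 ± 0.23 (SE; edgeR, adjusted p = 0.00988). An exact two-sided permutation test gave p = 0.0286, the smallest that the 70 assignments of 4 against 4 allow. Of 21 alternative fits, 20 kept the call. Without Control replicate 2 the log2 fold change was 1.98 with an adjusted p of 0.0578 by edgeR, in a fit that called 2 genes of all tested.

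**Figure D3:**
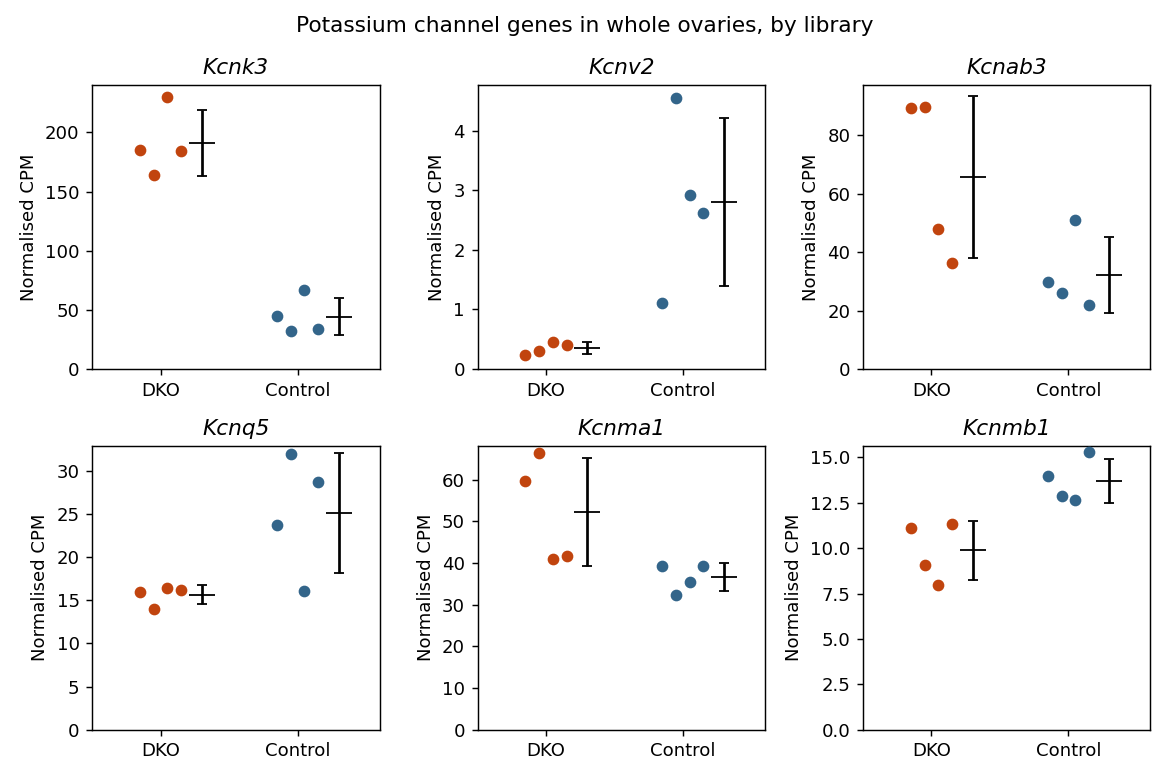
Normalised CPM of Kcnk3, Kcnv2, Kcnab3, Kcnq5, Kcnma1 and Kcnmb1, each point 1 library, with the mean and SD of the 4 DKO libraries on the left and of the 4 Control libraries on the right. The groups are apart for Kcnk3, Kcnv2, Kcnma1 and Kcnmb1 and overlap for Kcnab3 and Kcnq5.

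Kcnk3 made up a larger share of the family in DKO ovaries. Summed over all 94 genes, Kcn transcripts came to 165 ± 9.15 RPKM in DKO and 124 ± 6.91 RPKM in Control ovaries. Kcnk3 supplied 30.4 ± 3.71% of that sum in DKO and 9.35 ± 3.27% in Control ovaries. Without Kcnk3 the sums were 115 ± 8.17 RPKM in DKO and 112 ± 6.77 RPKM in Control ovaries (SD, n = 4 each), which differ by less than either SD. Kcnk9, which encodes the related channel TASK-3, had 0 counts in all 8 libraries, which allows up to 0.0104 CPM (3 counts over the 288050514 counts of the 8 libraries, counting error only).

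**Figure D4:**
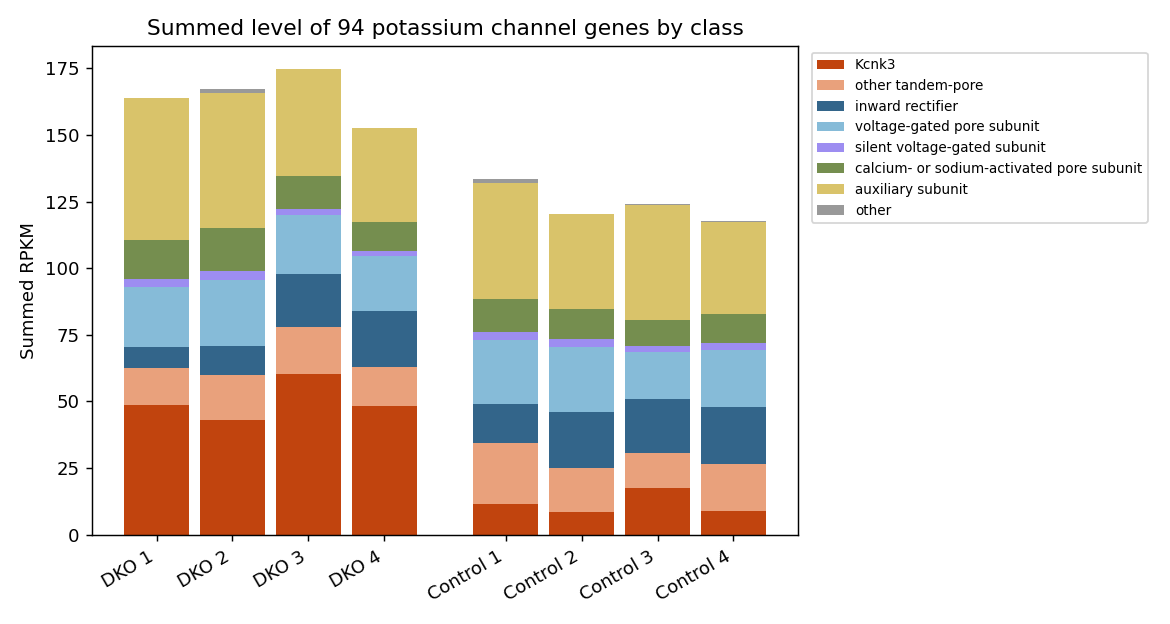
Summed RPKM of the 94 Kcn genes in each library, stacked by class with Kcnk3 shown apart from the other tandem-pore genes; DKO libraries on the left, Control libraries on the right. The DKO bars reach 153 to 175 RPKM and the Control bars 118 to 133.5 RPKM, with Kcnk3 segments of 43.1 to 60.4 RPKM in DKO and 8.38 to 17.5 RPKM in Control libraries.

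A noncoding gene on the opposite strand, Gm9899, shares 229 exon bases with Kcnk3, or 6.01% of its exon length. It averaged 6.17 ± 0.642 CPM in DKO and 2.26 ± 0.979 CPM in Control ovaries, a log2 fold change of 1.45 ± 0.29 (SE; edgeR, adjusted p = 0.0491). The reads were counted by strand, per the file headers, and the level of Gm9899 was far below that of Kcnk3 in both groups. Its call was lost in 11 of 21 alternative fits, among them those without any 1 library other than Control replicate 3, with the log2 fold change at 1.32 to 1.80.

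The genes listed as luteal markers were higher in DKO ovaries, in a list chosen with earlier results of these data known. All 5 (Ptgfr, Lhcgr, Hsd3b1, Cyp11a1 and Oxtr) were higher in every DKO than in every Control ovary, where 5.7% of all genes were so. Their sum ranged over 12950 to 15080 CPM in DKO and 6145 to 10650 CPM in Control ovaries. Of these markers 3, Ptgfr, Hsd3b1 and Oxtr, passed the test, where 0.759% of all genes were called higher. Of 5 adrenal cortex markers, 3 were tested, and Akr1b7, an aldose reductase family enzyme, was called higher (889 ± 166.9 CPM in DKO and 473 ± 90.9 CPM in Control ovaries; log2 fold change 0.91; edgeR, adjusted p = 0.0429). Cyp11b1 was higher in every DKO than in every Control ovary but was not called (134 ± 24.2 CPM in DKO and 85.9 ± 26.1 CPM in Control ovaries; log2 fold change 0.65; edgeR, adjusted p = 0.184). Mc2r, the corticotropin receptor, was not called either, at 0.448 ± 0.207 CPM in DKO and 0.564 ± 0.334 CPM in Control ovaries (log2 fold change -0.34). The sum of the adrenal list ranged over 855 to 1282 CPM in DKO and 433 to 697 CPM in Control ovaries. Its member Cyp11b2 stayed at or below 0.33 CPM in every library, and Cyp21a1 was listed at 0 in all 8. The calls of Akr1b7 and Hsd3b1 were lost in 9 and 10 of 21 alternative fits, 6 and 7 of them fits without 1 library, with no change of sign. The part of these markers in the Kcnk3 result was not tested.

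None of the other 7 tested Kcnk genes passed. Kcnk1 (TWIK-1), Kcnk5 (TASK-2, an alkaline-activated channel), Kcnk2 (TREK-1, a mechanically gated channel) and Kcnk6 (TWIK-2) had means of at least 1 RPKM. Kcnk1 averaged 20.4 ± 2.28 CPM in DKO and 22.6 ± 8.19 CPM in Control ovaries, Kcnk5 averaged 21.2 ± 3.19 CPM in DKO and 21.2 ± 5.69 CPM in Control ovaries, and Kcnk2 averaged 16.0 ± 1.44 CPM in DKO and 19.9 ± 4.52 CPM in Control ovaries (SD, n = 4 each). Their log2 fold changes were -0.14, 0.00 and -0.32, with edgeR adjusted p from 0.426 to 0.997. Kcnk10 (TREK-2) had the lowest fold change of the class, -1.32 ± 0.85 (SE), with 1.33 ± 1.20 CPM in DKO and 3.31 ± 2.08 CPM in Control ovaries. Its groups overlapped, and its lowest libraries were DKO replicates 1 and 2 and Control replicate 1 (described further on).

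Kcnv2 encodes Kv8.2, a silent subunit that joins Kv2 channels and is best known from photoreceptors. It lies at chr19:27322061-27337179 on the plus strand. Its counts were 9, 10, 17 and 14 in the DKO libraries, against 41, 161, 106 and 86 in the Control libraries, or 0.229, 0.294, 0.448 and 0.402 CPM in DKO ovaries against 1.10, 4.55, 2.91 and 2.62 CPM in Control ovaries. Every DKO ovary lay below every Control ovary, and Control replicate 1 was the lowest of its group. The means were 0.343 ± 0.100 CPM in DKO and 2.80 ± 1.41 CPM in Control ovaries (SD, n = 4 each). The log2 fold change was -3.01 ± 0.46 (SE; edgeR, adjusted p = 0.0212; exact permutation p = 0.0286). At 0.0609 RPKM in DKO and 0.496 RPKM in Control ovaries it was among the scarcer tested members. Without Control replicate 2 or 4, or DKO replicate 1, 2 or 3, its adjusted p by edgeR was 0.0815, 0.0699, 0.0607, 0.0645 and 0.0688, with log2 fold changes of -2.68 to -3.16.

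Kcnb2 (Kv2.2), a pore gene of the kind Kcnv2 joins, averaged 0.505 ± 0.134 CPM in DKO and 0.988 ± 0.563 CPM in Control ovaries, a log2 fold change of -0.97 (edgeR, adjusted p = 0.307). Of the other 7 tested silent subunit genes, 0 passed. Kcng4 (Kv6.4) had 2.84, 2.09, 2.00 and 0.746 CPM in DKO ovaries, against 0.671, 0.904, 0.715 and 0.976 CPM in Control ovaries, with DKO replicate 4 inside the Control range and a log2 fold change of 1.23 ± 0.39 (edgeR, adjusted p = 0.166). Kcns2 and Kcns3 had log2 fold changes of 0.78 and -0.38, and Kcng3, the silent gene with the highest CPM, of -0.37.

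Of the 22 tested voltage-gated pore genes 0 passed by edgeR, and their median log2 fold change was 0.07. The one with the lowest adjusted p was Kcnq5 (Kv7.5), an M-current channel. It had 16.0, 14.04, 16.4 and 16.2 CPM in DKO ovaries, against 23.7, 32.0, 16.1 and 28.7 CPM in Control ovaries. The DKO values lay close together and only Control replicate 3 fell among them. The log2 fold change was -0.68 ± 0.19 (SE; edgeR, adjusted p = 0.129), while DESeq2 gave an adjusted p of 0.0256, and without Control replicate 3 edgeR gave 0.0179.

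Kcnh2 (Erg1), the most abundant voltage-gated pore gene per length, averaged 38.5 ± 7.09 CPM in DKO and 34.9 ± 6.97 CPM in Control ovaries, a log2 fold change of 0.14 (edgeR, adjusted p = 0.762). Its relative Kcnh4 (Elk1) had 0.305, 0.736, 1.503 and 1.49 CPM in DKO ovaries, against 0.994, 3.05, 5.64 and 2.41 CPM in Control ovaries. The lowest Control ovary lay inside the DKO range, and the log2 fold change was -1.58 ± 0.59 (edgeR, adjusted p = 0.231). Its 3 lowest libraries were DKO replicates 1 and 2 and Control replicate 1 (described further on). Kcnc2 (Kv3.2) averaged 1.54 ± 0.684 CPM in DKO and 2.95 ± 0.849 CPM in Control ovaries (log2 fold change -0.93), and a fit with a term that sets the 3 libraries of lower sample title number (DKO replicates 1 and 2 and Control replicate 1) apart from the other 5 called it lower (-1.20; edgeR, adjusted p = 0.0374). Kcnd2 (Kv4.2) averaged 10.2 ± 5.18 CPM in DKO and 6.39 ± 0.401 CPM in Control ovaries (0.68), Kcnd3 (Kv4.3) averaged 16.97 ± 1.39 CPM in DKO and 17.5 ± 4.75 CPM in Control ovaries (-0.05), and Kcna5 (Kv1.5) averaged 2.32 ± 0.561 CPM in DKO and 1.56 ± 0.285 CPM in Control ovaries (0.57), each of these genes with adjusted p above 0.2 in the edgeR test without that term.

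Large-conductance calcium-activated channels (BK) are built from the pore Kcnma1 and beta subunits, of which Kcnmb1 is the smooth muscle form that raises calcium sensitivity. Kcnma1 had 59.8, 66.5, 40.9 and 41.6 CPM in DKO ovaries, against 39.3, 32.4, 35.4 and 39.3 CPM in Control ovaries. Kcnmb1 had 11.1, 9.10, 7.99 and 11.3 CPM in DKO ovaries, against 13.99, 12.9, 12.7 and 15.3 CPM in Control ovaries. Every DKO ovary was higher than every Control ovary for the pore and lower for the beta subunit. The log2 fold changes were 0.51 ± 0.17 for Kcnma1 and -0.47 ± 0.15 for Kcnmb1 (SE; edgeR, adjusted p = 0.175 and 0.172), so neither passed. The ratio of Kcnmb1 to Kcnma1 in RPKM was 0.746 ± 0.212 in DKO and 1.42 ± 0.0802 in Control ovaries (SD, n = 4 each), a pair put together after their values were seen.

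Groups did not overlap for 5 of the 67 tested Kcn genes (7.46%), against 9.24% of all genes. DKO ovaries lay above for Kcnk3 and Kcnma1, where 5.7% of all genes did so, and below for Kcnv2, Kcnmb1 and the inward rectifier Kcnj14, where 3.54% did so. Kcnj14 (Kir2.4) had 4, 11, 9 and 6 counts in the DKO libraries, against 19, 13, 16 and 15 in the Control libraries, with a log2 fold change of -1.09 ± 0.39 (SE; edgeR, adjusted p = 0.207).

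Smooth muscle and pericytes also express BK channel subunits, and of their 9 markers 0 passed. The 5 contractile markers (Acta2, Myh11, Cnn1, Des and Tagln) had log2 fold changes of -0.35 to -0.76, the sign of Kcnmb1, and Rgs5, Notch3, Pdgfrb and Cspg4 had 0.32 to 0.39, the sign of Kcnma1. Over all 9, the sum ranged over 1720 to 2814 CPM in DKO and 2088 to 3767 CPM in Control ovaries. Their part in the Kcnmb1 and Kcnma1 values was not tested. Of the other genes placed in the class with Kcnma1, the sodium-activated Kcnt1 averaged 43.0 ± 18.2 CPM in DKO and 26.2 ± 6.49 CPM in Control ovaries (log2 fold change 0.71). Kcnt2 averaged 29.0 ± 4.84 CPM in DKO and 37.8 ± 8.16 CPM in Control ovaries (-0.38). Kcnn2 (SK2) averaged 4.33 ± 1.43 CPM in DKO and 2.69 ± 0.363 CPM in Control ovaries (0.68), and Kcnu1, known as a sperm channel, averaged 1.66 ± 0.491 CPM in DKO and 1.08 ± 0.352 CPM in Control ovaries (0.61). Their edgeR adjusted p ranged over 0.277 to 0.424.

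Among auxiliary subunits, the beta subunits of Kv1 channels led. Kcnab3 had 89.3, 89.7, 47.9 and 36.4 CPM in DKO ovaries, against 29.8, 26.0, 51.0 and 21.7 CPM in Control ovaries. Its 2 lower DKO ovaries lay inside the Control range, and the log2 fold change was 1.03 ± 0.36 (SE; edgeR, adjusted p = 0.204), while DESeq2 gave an adjusted p of 0.0335. In the 5 libraries with the higher title numbers (2 DKO and 3 Control) its log2 fold change was 0.37 (edgeR, adjusted p = 0.788). Kcnab1 averaged 22.2 ± 2.73 CPM in DKO and 29.2 ± 5.58 CPM in Control ovaries, a log2 fold change of -0.39 ± 0.16 (edgeR, adjusted p = 0.27). The calcium-binding Kv4 partners Kcnip3 and Kcnip2 had log2 fold changes of 0.14 and 0.74.

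Kcnj8 encodes Kir6.1, the pore of the ATP-sensitive channel of vascular smooth muscle and pericytes, whose regulatory subunit SUR2 comes from Abcc9. It had 9.42, 12.8, 38.9 and 39.3 CPM in DKO ovaries, against 24.7, 40.6, 39.5 and 42.2 CPM in Control ovaries. The low values were those of DKO replicates 1 and 2 and Control replicate 1, those with the lower title numbers, and the other 5 libraries lay within 38.9 to 42.2 CPM. Kcne4, an inhibitory subunit of Kv1 and Kv7 channels, had 7.49, 4.86, 14.03 and 13.98 CPM in DKO ovaries, against 6.34, 18.7, 19.5 and 22.2 CPM in Control ovaries, with the same 3 libraries low. The labels do not say what the numbers stand for. Across genotypes the log2 fold changes were -0.55 ± 0.46 for Kcnj8 and -0.72 ± 0.44 for Kcne4 (SE; edgeR, adjusted p = 0.637 and 0.489). With a term for the run of numbers they were -0.45 and -0.36. In the 5 libraries of higher number alone they were -0.04 and -0.50 (edgeR, adjusted p = 0.961 and 0.2405). There Kcne4 was lower in each DKO than in each Control library.

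Those 3 libraries lay above all others for 4 of the 67 Kcn genes (5.97%) and below for 6 (8.96%), against 8.0% and 10.2% of all genes. Among the 6 were Kcnh4 (0.305 to 0.994 CPM against 1.49 to 5.64 CPM in the other 5) and Kcnk10 (0.0508 to 1.64 CPM against 2.11 to 6.35 CPM). With a term for the run of numbers the log2 fold change of Kcnh4 was -1.19 (edgeR, adjusted p = 0.129). Kcnk3 and Kcnv2 kept their calls within the 5 libraries of higher title number alone, with log2 fold changes of 2.25 and -2.96 (edgeR, adjusted p = 0.0244 and 0.0236). Abcc9 ranged over 37.0 to 57.0 CPM in the 3 libraries and 52.5 to 91.9 CPM in the other 5, which overlap.

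**Figure D5:**
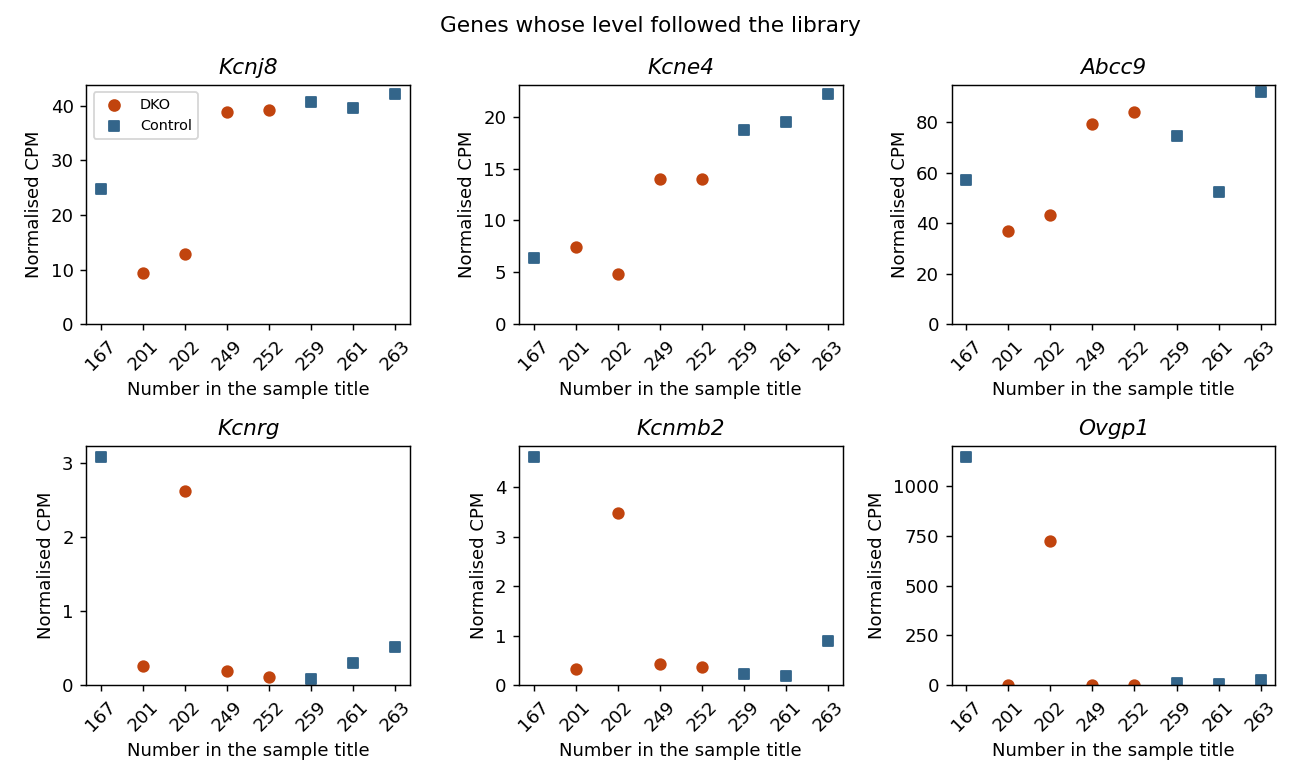
Normalised CPM of Kcnj8, Kcne4, Abcc9, Kcnrg, Kcnmb2 and the oviduct marker Ovgp1 in each library, ordered by the number in its title, with DKO libraries as circles and Control libraries as squares. Kcnj8 and Kcne4 are low in the 3 leftmost libraries, of which 2 are DKO and 1 is Control. Kcnrg, Kcnmb2 and Ovgp1 are high in DKO replicate 2 and Control replicate 1.

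DKO replicate 2 and Control replicate 1 held transcripts of the oviduct. Ovgp1, the oviduct secretory glycoprotein, was at 724 CPM in DKO replicate 2 and 1147 CPM in Control replicate 1, against 2.51 to 23.8 CPM in the other 6 libraries, and Foxj1, of ciliated cells, at 34.7 and 37.6 CPM against 0.302 to 2.90 CPM. In these libraries 11 of the 67 Kcn genes stood above all others (16.4%) and 3 below (4.48%), against 8.39% and 6.54% of all genes. Kcnrg, a regulator of Kv assembly, was at 2.62 CPM in DKO replicate 2 and 3.09 CPM in Control replicate 1, against 0.0848 to 0.519 CPM elsewhere. Kcnmb2 was at 3.47 and 4.62 CPM in the same libraries against 0.192 to 0.885 CPM, and Kcne3, partner of Kcnq1, at 13.5 and 38.4 CPM against 3.97 to 10.8 CPM. Kcnf1 was at 1.36 and 2.95 CPM against 0.055 to 1.04 CPM, and Kcnk12, too scarce to test, at 1.27 and 1.83 CPM against at most 0.0791 CPM. Without both libraries, Kcnk3 and Kcnv2 were still called, at log2 fold changes of 2.19 and -3.20 (edgeR, adjusted p = 0.0253 for both). The median log2 fold change of the tested Kcn genes was then 0.15, and groups of 3 against 3 did not overlap for 18 of 65 (27.7%), against 20.3% of all genes in the same libraries.

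Of the 27 untested genes, 23 had counts, at most 118 over the 8 libraries (Kcnk12), and 4 had none: Kcna10, Kcnj6, Kcnk7 and Kcnk9. Kcnj6 and Kcnk7 are among 4 Kcn rows, with Kcnj15 and Kcnn1, whose exons are listed on more than 1 sequence of the assembly. Of 1010 protein-coding rows of that kind, 37.0% were at 0, against 14.8% of the 20651 rows on a single sequence, and the ubiquitous Csnk2b was among them, so their 0 is only a listed value. Kcnk4, also untested, shares 330 exon bases on the same strand with Catsperz.

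Genes that work with these channels were counted in 4 lists, which were chosen with earlier results of these data known. Of 23 tested channel partners 0 passed by edgeR, the lowest adjusted p being that of the calmodulin gene Calm3 (log2 fold change 0.48, adjusted p = 0.0552), and by DESeq2 Calm3 passed (8.11e-05). Of 22 potassium transport genes 2 rose and 0 fell, where 0.759% of all genes were called higher. Among those that rose, Slc12a7, the potassium chloride cotransporter KCC4, averaged 230 ± 27.9 CPM in DKO and 114 ± 14.9 CPM in Control ovaries (log2 fold change 1.02 ± 0.13, SE; edgeR, adjusted p = 0.0132).

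Of 30 sodium, calcium and HCN channel genes 0 passed by edgeR. The lowest adjusted p was that of Cacna2d1, an auxiliary subunit of calcium channels (log2 fold change -0.55, adjusted p = 0.0509), which DESeq2 called (0.00122). Of 25 genes of Gq-coupled signalling, the pathway that closes TASK channels, 4 rose and 0 fell, where 0.759% of all genes were called higher. Because this list too was chosen with earlier results known, the share over all genes does not test it. Any link of these genes to the Kcnk3 result was not tested. The 4 that rose were the receptors Adra1d, Oxtr and Ptgfr and the phospholipase Plcb2, and Oxtr and Ptgfr are the luteal markers counted above. Adra1d averaged 19.8 ± 3.68 CPM in DKO and 4.92 ± 1.22 CPM in Control ovaries (log2 fold change 2.01; edgeR, adjusted p = 0.00699), and Plcb2 averaged 35.8 ± 9.04 CPM in DKO and 9.97 ± 2.82 CPM in Control ovaries (1.84; adjusted p = 0.0158). The median log2 fold changes of the 4 lists were -0.04, 0.14, -0.05 and 0.06 in the order given, beside -0.02 for all genes. Of these 6 calls, 0 were left without Control replicate 2, 3 without Control replicate 4 and 1 without DKO replicate 3.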

How the data were processed

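RNA-seq libraries of whole ovaries from 4 DKO and 4 Control mice were analysed from 1 table of counts per library. The authors counted reads per gene with featureCounts 1.5.2 on GRCm38.p5, in reverse-stranded mode, per the file headers, and deposited raw whole-number counts per gene with summed exon lengths. STAR 2.4.2a and Trimmomatic are named in the submitters' processing notes. Identifiers were matched to RefSeq symbols (GRCm38.p6, 96.9% of 41591).

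Counts were scaled by TMM and tested with edgeR 4.0.16 (filterByExpr, robust quasi-likelihood F-test, DKO over Control, no covariates) in R 4.3.3. P-values were adjusted by Benjamini-Hochberg over all 16870 genes tested, with a threshold of 0.05. CPM are TMM-scaled, and RPKM divide them by exon length in kilobases. DESeq2 1.42.0, limma-voom (limma 3.58.1), other scalings, filters, blocks and left-out libraries were alternatives.

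Named members were the called genes, the 10 of highest RPKM, the 10 of smallest p, the leading genes of each subfamily and those called by another tool. Genes named for following a library, and the promoters shown, were picked with their values in view. The members and lists were chosen with earlier results of these data known.

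Depth was 33145056 to 39257648 counts, and reduced chi-square between libraries of a group was 22.9 to 129, so none were counted as duplicates. Counts were simulated for 4 DKO against 4 Control libraries (16600 to 16611 genes tested). Of 1.5-fold changes 15.9% were recovered, of 2-fold 74.6% and of 4-fold 95.5%, with 4.13% false calls. The changed genes were drawn only from genes above a floor in mean CPM. Kcnv2 and the 21 tested Kcn genes under 1 CPM lay below that floor, so these rates do not cover them. Recovery was not tested for the Kcn genes alone or by expression level. The labels do not say that replicate numbers pair mice: correlations of same-numbered libraries were 0.156, -0.359, 0.312 and 0.468, and the main test had no block. Some genes that met the naming rule are not reported here.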

Additional observations from a re-analysis of the deposited data

Results flagged for a closer look

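In a group of 4 libraries, a value was set apart when its gap to the nearest other took up more of the group's range than Dixon's 95% critical value. Of 64 groups examined, 4 met this, and chance alone would give about 1 in 20. Kcnrg stood at 2.62 CPM in DKO replicate 2, against 0.115 to 0.254 CPM in the other DKO libraries. Kcnrg also stood at 3.09 CPM in Control replicate 1, against 0.0848 to 0.519 CPM in the other Control libraries. Kcnf1 stood at 2.95 CPM in Control replicate 1, against 0.055 to 0.254 CPM in the others. These are the libraries with oviduct transcripts (Ovgp1 at 724 CPM in DKO replicate 2 and 1147 CPM in Control replicate 1). The part of those transcripts in the Kcnrg and Kcnf1 values was not tested. Kcnj8 stood at 24.7 CPM in Control replicate 1, against 39.5 to 42.2 CPM in the other Control libraries.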

How the results depend on the processing

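Kcnk3 and Kcnv2 kept their direction in all 21 alternatives, with log2 fold changes of 1.98 to 2.48 and -3.29 to -2.67. The cause of the changes below was not tested, except that fewer libraries by construction overlap less often. All genes called, 212 in the edgeR test, numbered 1107 by DESeq2, 1651 by limma-voom with quality weights, 743 with a replicate block, 526 with a block for the run of title numbers, 97 without both libraries with oviduct transcripts (chosen after seeing the data) and 2 to 506 without 1 library. Kcn genes called, 2 in that test, numbered 4 by DESeq2, 6 with quality weights and 0 to 3 without 1 library. The title-number block called 3, adding Kcnc2 (adjusted p = 0.0374), and the replicate block called 3, adding Kcnh4 (adjusted p = 0.0405), where not every library correlated best with its own number. Companion calls, 6 in that test, numbered 14 by DESeq2, 18 with quality weights, 10 with the replicate block and 0 to 9 without 1 library. The median log2 fold change of the Kcn genes was 0.12 with quality weights, 0.12 for the 5 higher title numbers only, 0.15 without both oviduct libraries and -0.15 to 0.22 without 1 library. Kcn groups that did not overlap numbered 20 for the 5 higher title numbers only (29.4%, against 28.8% of all genes), 18 without both oviduct libraries (27.7%, against 20.3%) and 5 to 12 without 1 library (7.46% to 17.9%, against 10.2% to 19.8%).

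Uncalled fold changes near 0 or in genes with a library apart changed sign. Kcnk5 (0.00) was -0.00340 with DESeq2 size factors, -0.00115 at a filter of 1 CPM in 4 libraries, -0.00344 by DESeq2, -0.0350 with the title-number block and -0.0856 to 0.22 without 1 library. Kcnf1 (-0.02) was 1.31 by limma-voom, 1.30 with quality weights, 1.17 with the replicate block, 0.20 with the title-number block, 1.68 for the 5 higher title numbers, 2.13 without both oviduct libraries and -0.41 to 2.45 without 1 library. Kcnd3 (-0.05) was 0.0014 by limma-voom, 0.0018 for the 5 higher title numbers, 0.0776 without both oviduct libraries and -0.22 to 0.0793 without 1 library. Kcnk1 (-0.14) was 0.12 for the 5 higher title numbers, 0.10 without both oviduct libraries and -0.30 to 0.14 without 1 library. Kcnrg (-0.35) was 0.83 with quality weights and -2.41 to 1.40 without 1 library. Kcnh2 (0.14) was -0.0352 with quality weights, and Igf1r (-0.14) was 0.0136 for the 5 higher title numbers. With 21 of the tested Kcn genes under 1 CPM, counting error limits the scarce members.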
